A study of Mus musculus with 10 samples.

Results

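The genes described here are the transcriptional programme of the interferon response, together with the genes that build and load MHC class I molecules, in mouse trigeminal ganglion. They are 41 genes taken by symbol, and each of the 41 has 1 row in each of the deposited tables, of 26411 rows for the surgery experiment and 55886 for the injection experiment. The surgery experiment compared 3 libraries from mice with the operation that the labels call pIONT with 3 from sham-operated mice, 10 days later. The injection experiment compared 2 libraries after urocortin 1 (UCN1, a peptide of the corticotropin-releasing factor family) with 2 after phosphate-buffered saline (PBS), each given into the ganglion 6 hours before collection. Strain, sex, age and pooling of the mice are not given in the sources used here, so the spread between libraries may be between animals, between pools or technical. The series title names urocortin 1, HSPB1 and trigeminal neuropathic pain, and the question for these genes was whether interferon-driven and class I transcripts differed with nerve surgery or with UCN1.

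Type I interferons bind the receptor made of IFNAR1 and IFNAR2, and the signal runs through the kinases JAK1 and TYK2 to a complex with STAT2 and IRF9 that binds the interferon-stimulated response element (ISRE) in promoters. Interferon gamma acts through the gamma-activated site (GAS) and is the stronger inducer of the guanylate-binding and immunity-related GTPases and of class I genes. Class I molecules consist of a heavy chain with beta-2-microglobulin and carry peptides, moved into the endoplasmic reticulum by TAP1 and TAP2 and loaded with the help of tapasin, to the cell surface for inspection by cytotoxic T cells.

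RefSeq promoters (build GRCm38.p6, 250 bases before to 50 after a start, 300 in all) were matched for 33 of the 41 genes and searched on both strands for the ISRE core GAAANNGAA and for the GAS letters TTCNNNGAA, patterns that can overlap each other. The ISRE core was in a promoter of 19 of the 33 (57.6%), against 9.76% of 27025 genes in the table, and the GAS letters were in 10 of 33 (30.3%), against 9.55%. All 5 GTPase genes, 8 of 10 antiviral effectors and both RNA sensors with a promoter held the ISRE core, as did 1 of 5 class I genes (B2m) and neither interferon receptor, while both receptor genes held the GAS letters. Counted over promoters, the ISRE core was in 19 of 38, against 8.56% of 32851. The sequences below are the 250 bases before the start, on the gene's strand, for the members with a promoter entry that were called after surgery, with the match in capitals. Cxcl10 lies on the minus strand at chr5:92348890-92349139 and has the ISRE core at -213 to -205 from the start. Ifit2 lies on the plus strand at chr19:34550444-34550693 and has the GAS letters at -241 to -233, and the window of its other listed start holds neither pattern. Ifitm2 lies on the minus strand at chr7:140955962-140956211 and has the ISRE core at -46 to -38.
Cxcl10: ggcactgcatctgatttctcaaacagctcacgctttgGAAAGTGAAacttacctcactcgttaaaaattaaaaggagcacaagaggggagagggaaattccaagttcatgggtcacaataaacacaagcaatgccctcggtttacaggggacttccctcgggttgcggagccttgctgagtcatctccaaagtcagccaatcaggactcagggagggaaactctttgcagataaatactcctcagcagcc
Ifit2: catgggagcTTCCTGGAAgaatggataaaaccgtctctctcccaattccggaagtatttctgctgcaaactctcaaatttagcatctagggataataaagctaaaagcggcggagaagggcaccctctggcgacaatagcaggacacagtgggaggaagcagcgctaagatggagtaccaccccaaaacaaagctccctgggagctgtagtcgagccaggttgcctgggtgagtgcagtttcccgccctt
Ifitm2: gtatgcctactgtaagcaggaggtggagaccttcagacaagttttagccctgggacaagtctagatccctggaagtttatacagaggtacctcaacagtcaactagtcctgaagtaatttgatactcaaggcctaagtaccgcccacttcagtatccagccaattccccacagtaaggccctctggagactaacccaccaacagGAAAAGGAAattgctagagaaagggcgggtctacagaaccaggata
A match is a run of letters and not a measured binding site.

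Values are FPKM (reads per length and depth) from the authors' tables, and levels are compared only within a table. Depth recovered from the tables was 24.2 to 29.7 M reads per surgery library and 15.7 to 17.1 M per injection library (M for 1e6). Markers of sensory neurons (10 genes) and satellite glia (8 genes) were above 0 in all 6 surgery libraries, and likewise in the 4 injection libraries. A gene is called when its adjusted p is at most 0.05 in limma over all genes tested, on log2(FPKM + 0.5). Fold changes on that scale understate the change of low genes. Sensory neuron markers summed to 4358 to 4715 FPKM in sham and 5512 to 5728 in pIONT, with 3 genes called higher and 4 lower. Satellite glia markers summed to 2587 to 2762 FPKM in sham and 2970 to 3659 in pIONT, with 2 called higher. Schwann cell markers (6 genes) summed to 4550 to 5044 FPKM in sham and 3769 to 4047 in pIONT, with 5 called lower. Of all genes, 10.5% were called higher and 12.3% lower. The part of these cells in the values below was not tested. In bulk tissue, fewer cells of a type and less RNA per cell cannot be told apart.

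In the sham, pIONT and PBS groups, libraries of the same group differed more in these genes than in the genome at large. In the UCN1 group the median SD was 0.11 for both. The spread in the other groups bears on every comparison below. Of the sham libraries, sham 1 was the highest in 38 of 41 members, against 36.9% of all genes, and it was the highest of all 6 libraries in 23, against 17.7%. Sham 2 was the lowest of all 6 in 36 of 41 members, against 18.8% of all genes. The median SD between sham libraries was 0.44 on the log2 scale for the members and 0.071 for all genes tested, and between pIONT libraries it was 0.20 and 0.087. Of the pIONT libraries, pIONT 2 was the highest in 32 members (37.5% of all genes), among them all 6 class I genes and all 5 GTPases, while pIONT 3 was the highest in 8 (32.5% of all genes). Those 8 were Mx1, Ifit1, Ifit2, Ifit3, Oasl2, Rsad2, Usp18 and Cxcl10.

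**Figure D1:**
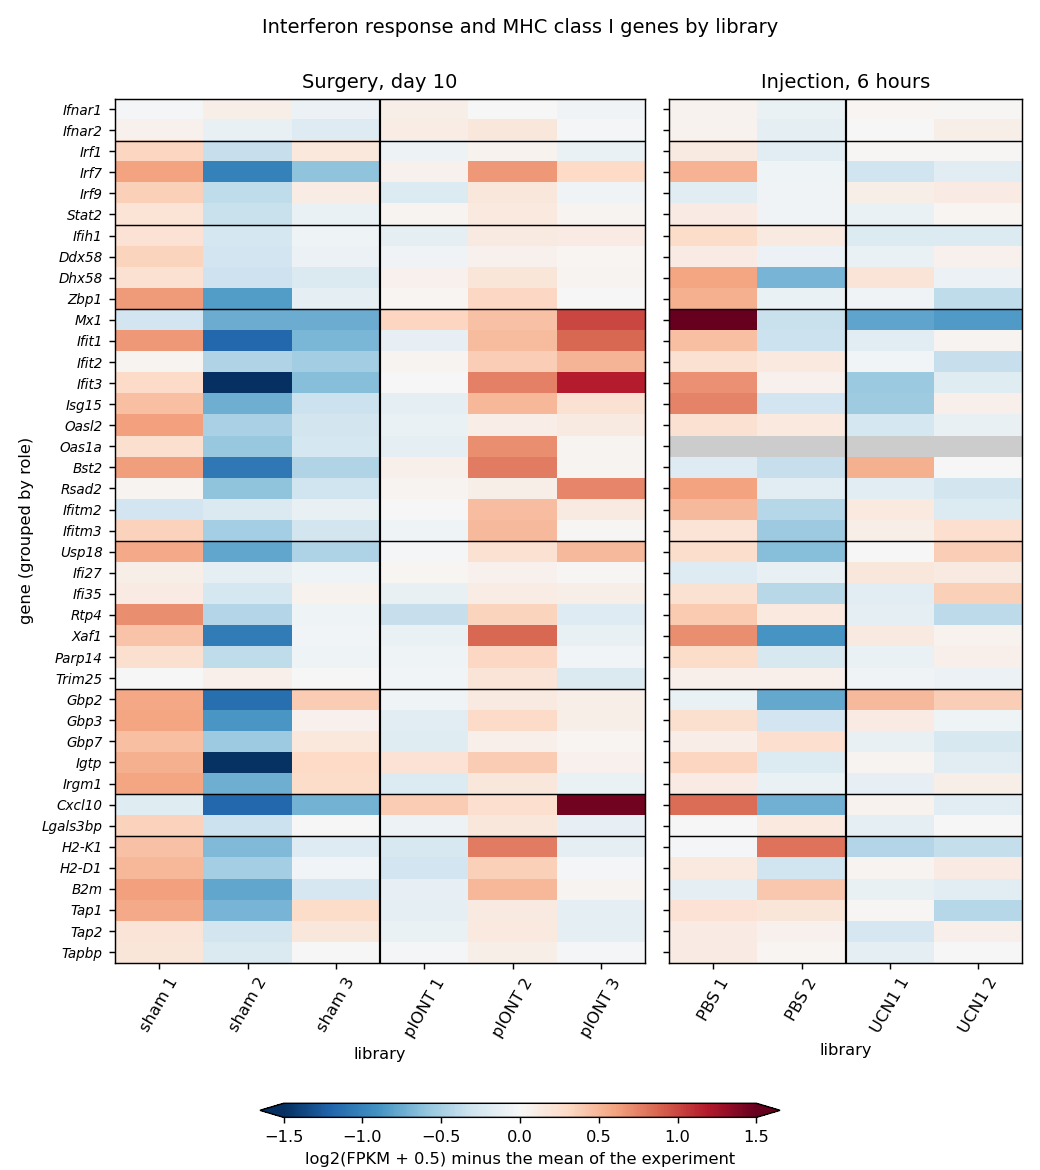
Each row is 1 of the 41 genes, grouped by role, and each column a library; colour is log2(FPKM + 0.5) minus the gene's mean over the libraries of that experiment, with grey for Oas1a, which was below the filter in the injection table. The sham 1 column is mostly red and the sham 2 column mostly blue, and in the injection experiment PBS 1 is redder than PBS 2.

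Sham 1 also stood apart in markers of tissue next to the ganglion. The 5 pituitary genes found in the table summed to 765 FPKM in sham 1, 80.7 in sham 2 and 255 in sham 3, and to 117 to 132 in the pIONT libraries, with none of the 5 at 0. T and NK cell markers (10 genes) summed to 5.89, 1.97 and 2.94 FPKM in sham 1 to 3 and to 3.72, 5.31 and 4.16 in pIONT 1 to 3, with Cd8a listed at 0 in sham 2 and Cd3d in pIONT 1. MHC class II genes (7) summed to 181, 79.6 and 131 FPKM in sham and to 121 to 138 in pIONT. Macrophage markers (15 genes, none at 0) summed to 337, 183 and 220 FPKM in sham and to 443, 925 and 394 in pIONT. Of the 15, 10 were called higher, against 10.5% of all genes. The sham libraries took the order sham 1, sham 3, sham 2 in the class I light chain gene B2m (505, 276 and 191 FPKM) and in each of these 4 lists. That order was not particular to them. Markers of fibroblasts (227, 170 and 182 FPKM in sham 1 to 3), oligodendrocytes (31.8, 18.1 and 19.7) and dendritic cells (6.99, 6.18 and 6.90) had it too. Some lists had other orders. Sham 1 was lowest and sham 3 highest in markers of neutrophils (22.5, 51.1 and 184 FPKM in sham 1 to 3), red blood cells (101, 209 and 402) and B cells (2.18, 2.93 and 4.33). Of the pIONT libraries, pIONT 2 had the highest B2m (462 FPKM) and macrophage sum. The part of these cells in the values below was not tested.

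**Figure D2:**
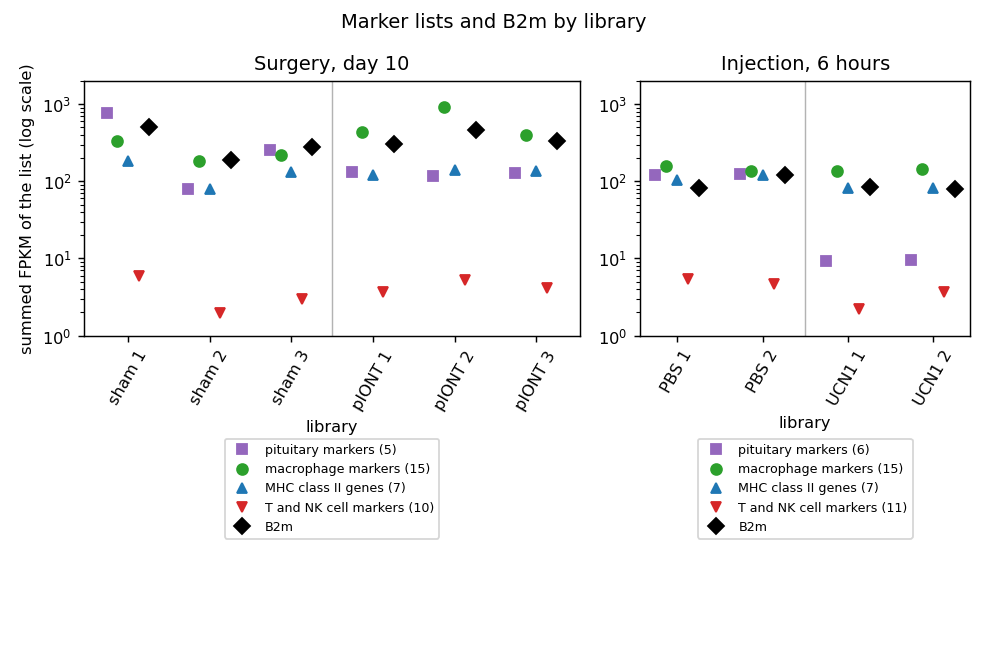
Summed FPKM (log scale) of 4 marker lists and the FPKM of B2m in each library; the number of genes in a list is in the legend. In the surgery experiment all 5 are higher in sham 1 than in sham 2, macrophage markers reach 925 FPKM in pIONT 2, and in the injection experiment pituitary markers are above 120 FPKM in both PBS libraries and under 10 in both UCN1 libraries.

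After surgery, the share of members called was not above that of all genes. Mx1, Cxcl10, Ifit2 and Ifitm2 were higher in pIONT, which is 4 of the 41 members tested (9.76%), against 22.8% of all genes called in either direction, 10.5% called higher and 12.3% called lower. The share of members called higher was thus near that of all genes, and 0 were called lower. At an unadjusted p of 0.05, 6 of 41 passed, all higher, against 37.0% of all genes in either direction. The direction was more uniform than the calls, with log2 fold changes above 0 in 32 of 41 members (78.0%), against 45.0% of all genes, and a median of 0.15 against -0.022. On TPM 28 of 41 were above 0, against 38.1% of all genes, and with median-of-ratios scaling 33, against 49.4%. In 4 members (9.76%) all pIONT libraries lay above all sham libraries, against 18.7% of all genes, and in 0 all lay below, against 24.7%.

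For the counts by role that follow, the shares of all genes were 22.8% called in either direction, 10.5% called higher and 45.0% above 0. None of the 2 receptor genes and 4 transcription factors passed the test. Ifnar1, a receptor chain, was at 10.8, 11.7 and 10.4 FPKM in sham 1 to 3 and 11.8, 11.0 and 10.6 in pIONT 1 to 3, and Ifnar2, the other chain, was at 3.80 to 4.65 in sham and 4.32 to 5.03 in pIONT. Neither passed, with log2 fold changes of 0.02 (SE 0.06) and 0.16 (SE 0.09), and their libraries overlapped. Stat2 and Irf9, partners in the complex at the ISRE, had values of 0.15 (SE 0.13) and -0.06 (SE 0.19). Irf7, which amplifies type I interferon production, was at 7.89, 2.25 and 3.14 FPKM in sham and 5.31, 8.17 and 6.33 in pIONT. The sham 1 value lay among the pIONT values and the other sham values below all of them, and Irf7 did not pass (log2 fold change 0.68, SE 0.39, adjusted p in limma = 0.251).

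The cytosolic sensors of viral nucleic acid had 0 calls among 4 genes, and all 4 had log2 fold changes above 0 in the fit of all 6 libraries, with Ddx58 at -0.011 on TPM and -0.00068 with array weights. Without sham 2, 1 of the 4 was above 0. Ifih1 (MDA5) and Ddx58 (RIG-I), which sense double-stranded RNA, were at 0.08 and 0.02, and their regulator Dhx58 (LGP2) at 0.20. Zbp1, a sensor of Z-form nucleic acid, was at 0.22, with 2.64, 0.631 and 1.34 FPKM in sham and 1.50 to 2.00 in pIONT, a range inside that of the sham libraries.

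Antiviral effectors held 3 of the 4 calls, on Mx1, Ifit2 and Ifitm2, which is 3 of 11 against 10.5% of all genes called higher. All 11 had log2 fold changes above 0 in the fit of all 6 libraries, against 45.0% of all genes. The median of the 11 was 0.58. Oasl2 was at -0.13 without sham 2 and at -0.02 without sham 3.

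Mx1, the gene of a dynamin-like GTPase, was at 1.11, 0.671 and 0.677 FPKM in sham 1 to 3 and 1.96, 2.18 and 3.45 in pIONT 1 to 3. All pIONT libraries lay above all sham libraries, on 62 to 116 reads per sham and 191 to 388 per pIONT library. Mean levels were 0.821 ± 0.255 in sham and 2.53 ± 0.803 FPKM in pIONT (SD, n = 3). The log2 difference was 1.18 with an SE of 0.21 (adjusted p in limma = 0.00898). Mx1 was called in 16 of 16 alternative settings in which it was tested. Its gene lies on chromosome 16 at 97248235 to 97264107, on the minus strand, as the surgery table gives it (GRCm39 per the submitters' processing notes; not checked against that genome here).

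Ifit2, of the family that binds viral RNA lacking a host-type cap, was at 6.91, 4.77 and 4.50 FPKM in sham and 6.91, 8.79 and 9.78 in pIONT. Sham 1 and pIONT 1 were the same to 3 digits and the others did not overlap. Mean levels were 5.39 ± 1.32 in sham and 8.49 ± 1.46 FPKM in pIONT (SD, n = 3). Ifit2 rose by 0.62 on the log2 scale, with an SE of 0.18 (adjusted p in limma = 0.0444), and passed in 9 of the 17 alternatives. It lies on chromosome 19 at 34528094 to 34553819 in the surgery table, close to its relatives Ifit1 and Ifit3. Ifit3 was at 15.3, 3.81 and 7.87 FPKM in sham and 12.5, 21.5 and 28.9 in pIONT. Only pIONT 1 fell within the sham range, and at a log2 fold change of 1.29 (SE 0.49) Ifit3 did not pass (adjusted p in limma = 0.0993). Ifit1 was at 16.4, 4.26 and 6.20 against 9.40, 14.4 and 19.0 FPKM (log2 fold change 0.81, SE 0.47). Ifit1 and Ifit3, like Rsad2, Bst2, Isg15 and Xaf1 below, are named after their values were seen. Members of this family, and of the Ifitm, Gbp and Oas families and the class I heavy chains, have close copies in the genome, so reads may be shared between them.

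Ifitm2, a membrane protein that blocks fusion of enveloped viruses, was at 18.4, 19.4 and 21.0 FPKM in sham and 22.7, 31.4 and 24.9 in pIONT. It was the only member with its lowest sham value in sham 1, and the groups did not overlap. Mean levels were 19.6 ± 1.27 in sham and 26.3 ± 4.51 FPKM in pIONT (SD, n = 3). The log2 difference was 0.40 with an SE of 0.12 (adjusted p in limma = 0.046), and it passed in 8 of the 17 alternatives. It lies on chromosome 7 at 140534750 to 140535900, and 40.9% of its exon bases also belong to the predicted gene Gm45717 on the same strand, so the value may include reads of that gene. Its relative Ifitm3 had 107, 58.5 and 68.8 FPKM in sham and 80.0, 117 and 84.3 in pIONT, with overlap (0.29, SE 0.23).

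Rsad2 (viperin), which makes a chain-terminating nucleotide, was at 2.98, 1.73 and 2.25 FPKM in sham and 3.00, 3.11 and 5.16 in pIONT. The groups did not overlap, by a margin of 2.98 to 3.00, and the gene did not pass (log2 fold change 0.58, SE 0.22, adjusted p in limma = 0.108). Bst2 (tetherin), which holds budding virus at the membrane, was at 47.9, 14.4 and 22.5 against 32.7, 53.3 and 31.8 FPKM. The ubiquitin-like modifier Isg15 was at 30.6, 13.2 and 17.6 against 20.2, 31.5 and 26.1 FPKM. In both, sham 1 lay in the pIONT range and the other sham libraries below it (adjusted p in limma = 0.341 and 0.377). Oasl2, of the oligoadenylate synthetase family, was at 19.6, 8.90 and 10.4 against 11.8, 13.6 and 13.9 FPKM, with sham 1 above every pIONT library (0.09, SE 0.26).

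**Figure D3:**
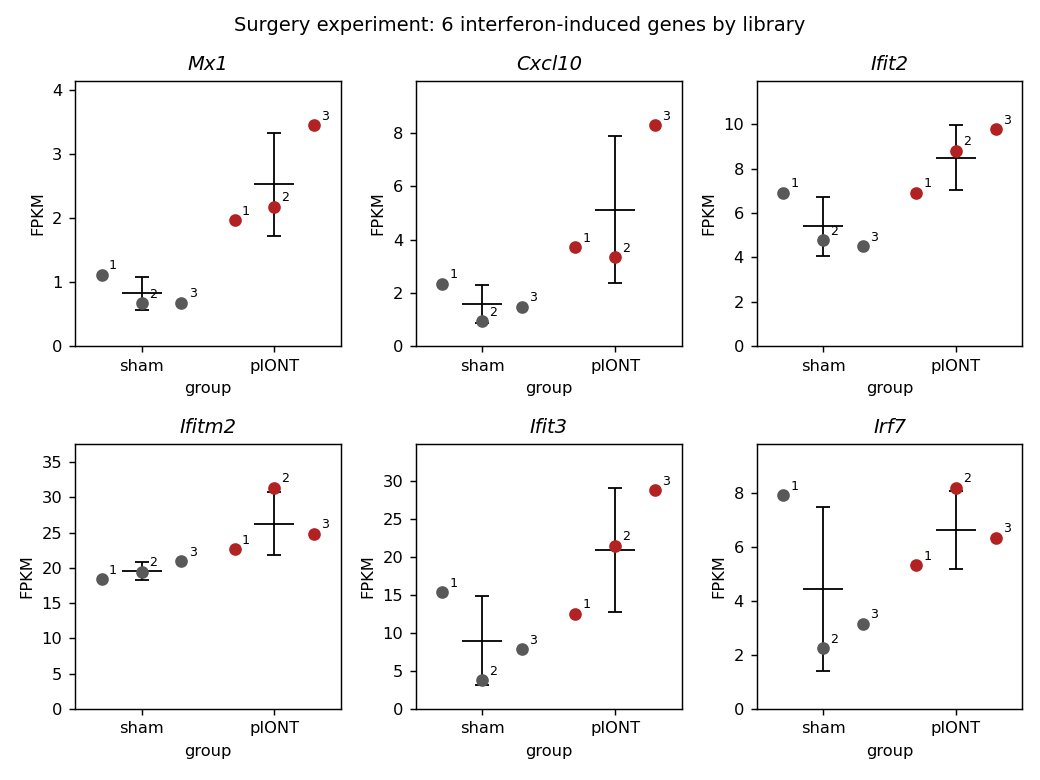
FPKM of 6 genes in sham and pIONT libraries, with the library number beside each point, the mean as a horizontal line and the SD as the vertical bar (n = 3). Mx1, Cxcl10 and Ifitm2 do not overlap between the groups; in Ifit2, Ifit3 and Irf7 the sham 1 point is level with or above the pIONT 1 point.

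Of the 7 modifiers and other induced genes 0 were called, with a median of 0.08. Usp18, the protease that removes ISG15 and damps the type I receptor, was at 4.98, 1.66 and 2.19 FPKM in sham and 3.14, 3.83 and 4.70 in pIONT, with sham 1 above all pIONT libraries (0.46, SE 0.33). Ifi27, the most abundant of them, was at 126 to 148 FPKM in sham and 141 to 146 in pIONT. Rtp4, an interferon-induced transport protein of some G-protein-coupled receptors, was at -0.13 (SE 0.30) and Xaf1, a pro-apoptotic protein, at 0.44 (SE 0.41). The exons of Rtp4 share 13.9% of their bases with a gene on the same strand.

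The GTPases that act on intracellular pathogens had 0 calls among 5 genes and values of -0.09 to 0.43. Igtp (IRGM3) was at 27.7, 6.50 and 23.4 FPKM in sham and 22.1, 24.8 and 19.8 in pIONT, and Gbp2 at 14.1, 3.94 and 12.2 against 8.89, 10.2 and 9.88. In both, sham 2 was the single low library and the other sham libraries lay at or above most pIONT values. Gbp7 was at -0.05 (SE 0.23). Exon bases of Igtp (8.01%) and Gbp7 (11.4%) are shared with genes on the same strand.

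Of the secreted products, Cxcl10, a chemokine that draws CXCR3-bearing T and NK cells, was at 2.35, 0.927 and 1.47 FPKM in sham 1 to 3 and 3.72, 3.33 and 8.29 in pIONT 1 to 3. The groups did not overlap, and pIONT 3 was the highest library. Mean levels were 1.58 ± 0.718 in sham and 5.12 ± 2.76 FPKM in pIONT (SD, n = 3). The log2 difference was 1.38 with an SE of 0.36 (adjusted p in limma = 0.0347), and it passed in 12 of the 17 alternatives. The gene lies on chromosome 5 at 92494497 to 92496748 in the surgery table, on the minus strand, and 5.91% of its exon bases overlap Art3 on the other strand. Lgals3bp, a secreted glycoprotein, was at 25.2 to 40.2 FPKM in sham and 28.9 to 35.7 in pIONT (-0.02, SE 0.16).

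None of the 6 class I genes was called, and their median log2 fold change was 0.03, with a range of -0.09 to 0.27. On TPM, H2-D1 and Tapbp, the gene of tapasin (named after its values were seen), turned below 0, at -0.0093 and -0.015. Without sham 2 or without pIONT 2, 1 of the 6 was above 0, and without sham 1 all 6 were. The heavy chain gene H2-D1 was at 364, 181 and 249 FPKM in sham and 209, 329 and 252 in pIONT, with means of 264 ± 92.4 and 264 ± 60.7 (SD, n = 3). The heavy chain gene H2-K1 was at 41.2, 18.9 and 26.3 against 25.5, 52.2 and 27.5 FPKM. B2m, the light chain gene and the most abundant member, was at 505, 191 and 276 against 302, 462 and 337 FPKM. In all 3 genes the lowest library was sham 2, the sham range covered or reached most of the pIONT range, and log2 fold changes were 0.03 (SE 0.26), 0.27 (SE 0.34) and 0.27 (SE 0.34). Tap1, a subunit of the peptide transporter, was at 5.25, 1.91 and 4.20 against 3.01, 3.79 and 3.05 FPKM (-0.09, SE 0.30). The difference between the roles was not tested.

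The fit was repeated without sham 1, which had the highest pituitary sum. Since sham 1 was the highest sham library in 38 of 41 members, leaving it out raises their fold changes by construction, and the values without it describe how far 1 library moves them and are no support for a rise. In that fit 9 of 41 members were called higher and 0 lower, against 8.20% of all genes called higher, and 40 of 41 had log2 fold changes above 0, against 46.9% of all genes, with a median of 0.36. The 9 were Mx1, Cxcl10, Ifit1, Ifit2, Ifit3, Irf7, Usp18, Oasl2 and Dhx58. Irf7 moved from 0.68 to 1.15 on the log2 scale, Usp18 from 0.46 to 0.85, Ifit3 from 1.29 to 1.76 and Ifit1 from 0.81 to 1.33. Ifitm2 was no longer called, at 0.36 (adjusted p in limma = 0.125), and none of the 6 class I genes or 5 GTPases was called.

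**Figure D4:**
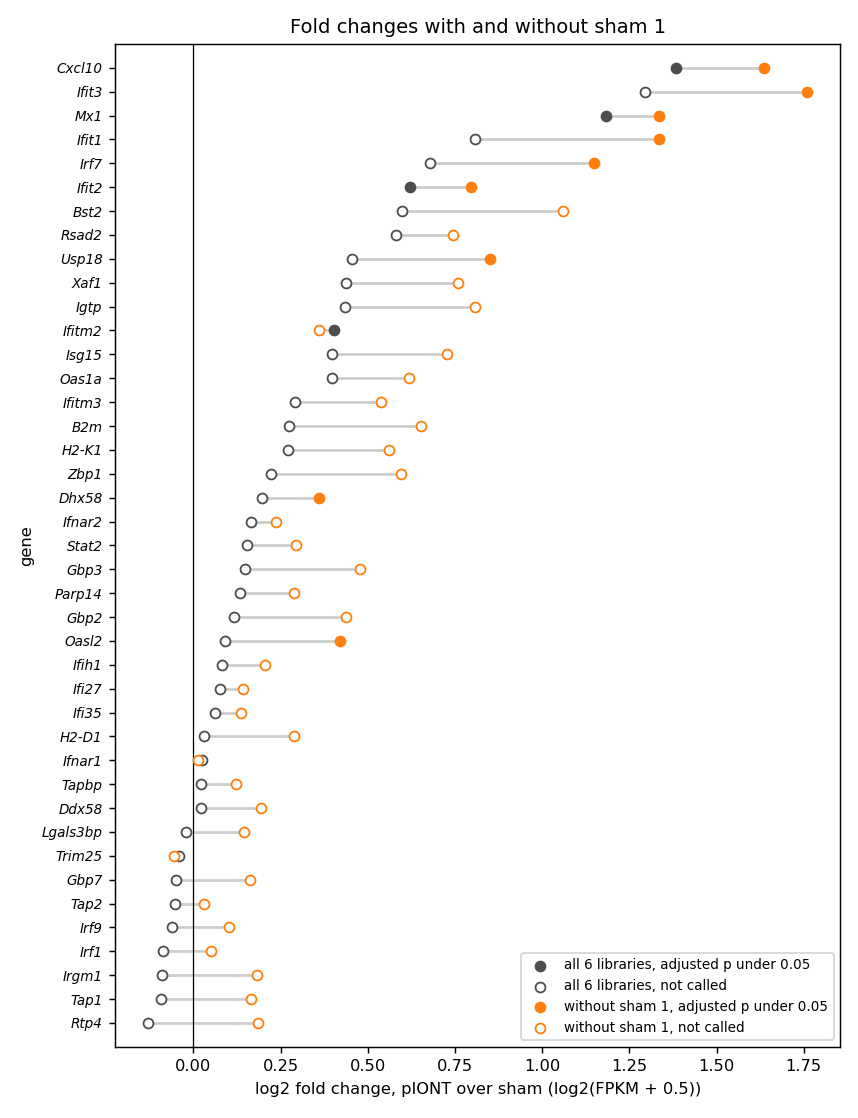
Log2 fold change of pIONT over sham for each of the 41 genes in the fit of all 6 libraries (grey) and without sham 1 (orange), filled where the adjusted p was under 0.05. Leaving out sham 1, the highest sham library in 38 of the 41 genes, moves nearly every gene to the right by construction, with 9 filled orange points against 4 filled grey ones.

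Leaving out sham 2, the lowest sham library in 36 of 41 members, moved the values the other way, likewise by construction. Without sham 2, 20 of 41 members had values above 0, against 44.2% of all genes, and 2 were called against 14.1% of all genes. These were Mx1, higher at 1.10 (adjusted p in limma = 0.0322), and Gbp2, lower at -0.42 (adjusted p in limma = 0.0306), where all 5 GTPases were below 0. Without sham 3, or without pIONT 3, Mx1 alone of the members was called, against 6.29% and 9.47% of all genes called higher. Without pIONT 1, Mx1, Ifit2 and Ifitm2 were called, against 8.28% of all genes called higher, and without pIONT 2, the library richest in macrophage markers, Mx1, Cxcl10 and Ifitm2, against 7.79% of all genes called higher. With sham 1 and pIONT 2 both left out, Mx1, Cxcl10, Ifit2 and Irf7 were called, against 6.15% of all genes called higher, and 38 of 41 members were above 0, against 45.5%. Ifit2 lost its call without sham 2, sham 3, pIONT 2 or pIONT 3, Cxcl10 without sham 2, sham 3, pIONT 1 or pIONT 3, and Ifitm2 without any of the 3 sham libraries or pIONT 3. The counts of members called therefore depended on which library stayed in.

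Genes around this set were counted from lists of the same pathway. Of 56 other interferon-stimulated genes tested, 4 were called higher and 1 lower (median 0.11), against 10.5% of all genes higher and 12.3% lower. Without sham 1 the counts were 8 and 0, against 8.20% and 7.10%. These shares are not above the background in the fit of all 6 libraries. Oasl1, which restrains Irf7 translation, was at 1.65, 1.08 and 0.938 FPKM in sham and 2.26, 2.54 and 2.62 in pIONT, a rise of 0.81 (SE 0.15, adjusted p in limma = 0.0115). Tor3a rose by 0.46, Trafd1, a negative regulator of innate signalling, by 0.30, and Tdrd7 fell by 0.21. With 1 library left out, Oasl1 and Tor3a were called in 6 of 6 fits, Trafd1 in 5 and Tdrd7 in 1, the fit without pIONT 3.

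Of 11 genes of sensing upstream of interferon 3 were called, all higher. For this list and those that follow, the shares of all genes were 10.5% called higher and 12.3% called lower. Sting1, the adaptor of cytosolic DNA sensing, was at 1.66 to 2.26 FPKM in sham and 3.57 to 5.61 in pIONT and rose by 0.97 on the log2 scale (adjusted p in limma = 0.0084). Irf8, a transcription factor of myeloid cells, rose by 0.82 and the endosomal RNA receptor Tlr7 by 0.71. Sting1 was called in 6 of 6 fits with 1 library left out, while Irf8 lost its call without sham 2 or sham 3, and Tlr7 without sham 2, sham 3, pIONT 1 or pIONT 2. All 3 were highest in pIONT 2, with Sting1 at 5.61 FPKM there against 3.85 and 3.57, as were the macrophage markers, whose part was not tested. Of 5 tested genes among interferons, other receptors and kinases, the kinase gene Jak1 rose by 0.38 (adjusted p in limma = 0.000948). Interferon ligands were barely seen, with Ifng, named after its values were seen, at 0.113 FPKM or less and listed at 0 in 2 of the 6 libraries. Of 7 feedback genes Socs3, the inhibitor of JAK signalling, was at 3.27 to 4.76 FPKM in sham and 7.27 to 9.28 in pIONT and rose by 0.90 (adjusted p in limma = 0.00605).

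The other antigen presentation genes had few calls, to be set beside 22.8% of all genes called in either direction and 10.5% called higher. Of 11 genes of antigen processing 0 were called, with Calr and Pdia3, chaperones of class I folding, at 0.13 and 0.06. Of 8 other class I genes only the lipid-presenting Cd1d1 was called, at 1.29, 1.45 and 1.50 FPKM in sham and 3.35, 3.22 and 2.40 in pIONT (0.86, adjusted p in limma = 0.00427). Of 7 class II genes only H2-Eb1 was called, at 1.76, 1.31 and 0.981 against 6.24, 4.18 and 4.17 FPKM (1.53, adjusted p in limma = 0.00331). It stood against a class II sum whose sham range held the pIONT range.

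In the injection experiment no member was called 6 hours after UCN1. The count was 0 of 40 tested, with Oas1a at 0.280 to 0.610 FPKM below the filter, against 0.601% of all genes, so 0 is near the background. At an unadjusted p of 0.05, 9 of 40 passed, against 13.1% of all genes. These were Mx1, Ifit2, Ifit3, Oasl2, Rtp4 and H2-K1 on the lower side in UCN1 and Bst2, Ifi27 and Gbp2 on the higher side. Log2 fold changes were above 0 in 14 of 40 (35.0%), against 48.5% of all genes, with a median of -0.12 against -0.0068. In 4 members (10.0%) both UCN1 libraries lay above both PBS libraries, against 21.8% of all genes, and in 13 (32.5%) both lay below, against 23.7%.

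PBS 1 was higher than PBS 2 in 34 of 40 members, against 56.0% of all genes. The median SD between the PBS libraries was 0.34 on the log2 scale for members and 0.11 for all genes, and between the UCN1 libraries it was 0.11 for both. Without PBS 1, 23 of 38 members tested were above 0, against 50.8% of all genes, and without PBS 2, 4 of 40 were, against 46.1%. The share of members above 0 passed from below to above that of all genes when PBS 1 was left out. Since PBS 1 was the higher PBS library in 34 of 40 members, both shifts arise by construction and are no support for a change.

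Mx1 showed the gap between the PBS libraries most plainly, at 4.42 and 0.495 FPKM in PBS 1 and 2. In UCN1 1 and 2 it was at 0.228 and 0.196 FPKM. These values rested on 112, 14, 6 and 5 reads, in that order. PBS 1 alone held most of the reads (log2 fold change -1.64, SE 0.65, adjusted p in limma = 0.342). Cxcl10 was at 6.25 and 1.78 against 3.41 and 2.85 FPKM, and Xaf1 at 25.9 and 8.27 against 17.3 and 16.4, so that in both the UCN1 libraries lay between the PBS libraries. Ifit3 was at 10.2 and 6.42 against 4.00 and 5.34 FPKM (-0.74, SE 0.23, adjusted p in limma = 0.249), and Oasl2 at 33.9 and 32.1 against 23.9 and 26.8 (-0.38, SE 0.11, adjusted p in limma = 0.206). In these both UCN1 libraries were below both PBS libraries. Ifit2 was at 14.5 and 13.6 against 11.9 and 9.54 FPKM, and Rtp4 at 5.95 and 4.90 against 3.94 and 3.22, also without overlap.

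Gbp2, a GTPase induced mainly by interferon gamma, was at 5.11 and 3.03 FPKM in PBS and 7.94 and 7.26 in UCN1. The groups did not overlap (log2 fold change 0.86, SE 0.23, adjusted p in limma = 0.185), and Gbp2 had the largest value above 0 of the members. With voom on reads recovered from the FPKM values it was called at 0.96 (adjusted p in limma = 0.0291), in a test that called 2.25% of all genes. Ifi27 was at 54.3 and 57.6 FPKM in PBS and 70.0 and 68.0 in UCN1 (0.30, SE 0.09, adjusted p in limma = 0.222), and Bst2 at 5.40 and 4.77 against 9.25 and 6.24 (0.54, SE 0.20). Irf9 was at 12.1 and 13.1 against 14.6 and 14.9 FPKM (0.22, SE 0.12). The other 4 GTPases had values of -0.35 to 0.05.

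**Figure D5:**
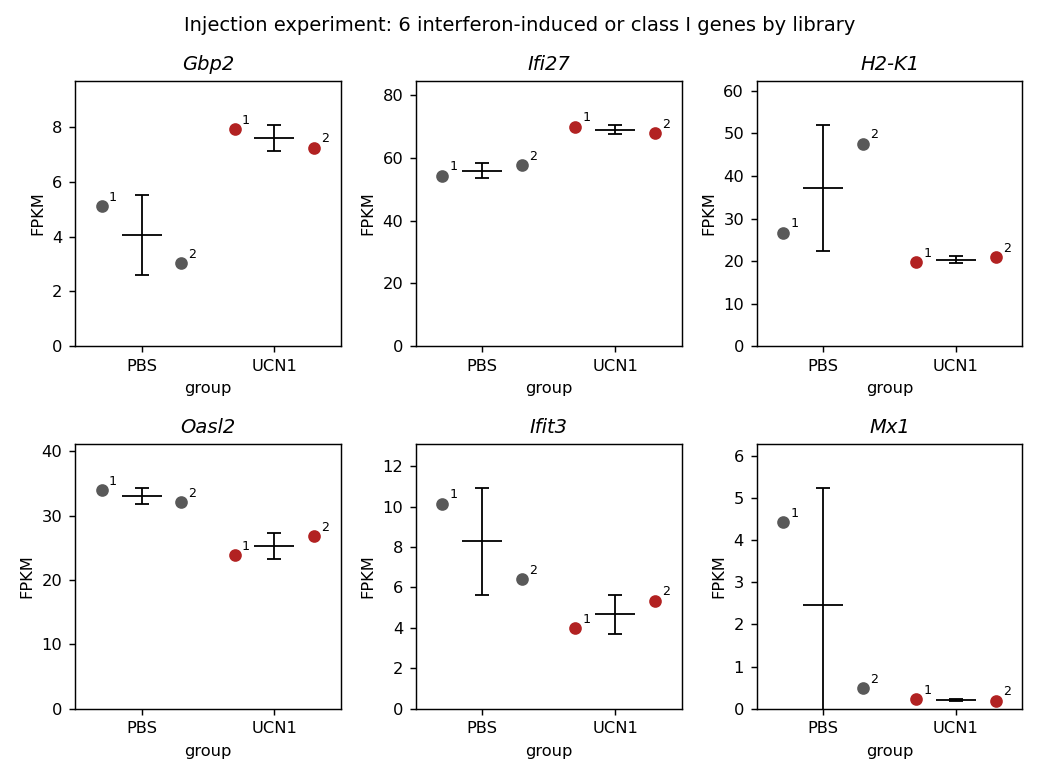
FPKM of 6 genes in PBS and UCN1 libraries, numbered as in the titles, with the mean as a horizontal line and the SD as the vertical bar (n = 2; the bar for Mx1 in PBS is cut at 0). Gbp2 and Ifi27 lie higher and the other 4 lower in both UCN1 libraries, and for Mx1 and H2-K1 the PBS libraries lie far apart.

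The class I heavy chain gene H2-K1 was at 26.7 and 47.6 FPKM in PBS and 19.7 and 20.9 in UCN1. Both UCN1 libraries were below both PBS libraries, and PBS 2 was the high one (log2 fold change -0.80, SE 0.23, adjusted p in limma = 0.212). It was called with voom at -0.82 (adjusted p in limma = 0.0284), and without PBS 2 it was at -0.39 (adjusted p in limma = 0.382). Without PBS 1 it was at -1.21 (adjusted p in limma = 0.0427; 0.237% of all genes called), but that fit holds a single PBS library, the one with the high H2-K1 value, and takes its spread from the UCN1 pair, so it is no support for the call. H2-D1, the other heavy chain, was at 160 and 117 against 149 and 158 FPKM, and B2m at 82.2 and 120 against 83.7 and 80.5, each with overlap. Reads of H2-K1 and H2-D1 can be assigned to each other or to related class I genes. The 8 tested genes of that wider group had 0 calls, against 0.601% of all genes, with a median of -0.56. Tap1 was at 3.53 and 3.43 against 3.00 and 2.08 FPKM (-0.41, SE 0.22).

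The surrounding pathway had 1 call after UCN1, to be set beside 0.601% of all genes called in that comparison. Socs3 was at 15.8 and 15.3 FPKM in PBS and 28.9 and 33.8 in UCN1, a rise of 0.99 on the log2 scale (SE 0.12, adjusted p in limma = 0.0179). The call was lost in each of the 4 fits with 1 library left out, where the value was 0.87 to 1.10 (adjusted p in limma = 0.0928 to 0.313). The 49 other interferon-stimulated genes, 6 receptors and kinases, 11 upstream sensing genes, 11 antigen processing genes and 7 class II genes that were tested had 0 calls in limma. At a share of 0.601% of all genes, 0 is near the background for lists of these sizes. In the antigen processing list Calr was at 282 and 302 against 403 and 399 FPKM and did not pass (0.46, SE 0.08, adjusted p in limma = 0.0604). The other list genes chosen by level did not pass either. Log2 fold changes were 0.11 for Pdia3, 0.24 for Shisa5, 0.45 for Znfx1, -0.006 for Jak1 and 0.11 for Ifngr2. For Tbk1, Irf3, Fcgrt, Mr1, Cd74 and H2-DMa they were -0.05, 0.05, -0.06, -0.11, -0.39 and -0.21. Ifng and Ifnb1, named after their values were seen, were listed at 0 in all 4 libraries.

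Marker levels differed between the injection groups as well. Pituitary markers (6 genes, Lhb listed at 0 in all 4 libraries, and 4 of the 6 above 0 in UCN1 2) summed to 122 and 124 FPKM in PBS and 9.14 and 9.61 in UCN1. Of the 5 tested, 3 were called lower, against 0.297% of all genes. T and NK cell markers (11 genes) summed to 5.36 and 4.60 against 2.22 and 3.63 FPKM, with 3 and 4 of the 11 above 0 in the UCN1 libraries, and class II genes to 105 and 122 against 81.5 and 82.1. Macrophage markers (15 genes, none at 0) summed to 157 and 136 against 135 and 146 FPKM. The part of these levels in the class I and interferon values was not tested.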

How the data were processed

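RNA-seq was made from total RNA of mouse trigeminal ganglia with a NEBNext Ultra II kit, per the labels' protocols. The authors deposited 1 table of FPKM per experiment, made with STAR, HTSeq and DESeq2 on GRCm39 per the submitters' processing notes, which give no versions or strand setting. Gene coordinates of the injection table equal those of GRCm38 for 99.4% of genes found in GENCODE vM21, against 1.96% for the surgery table, so the tables do not share coordinates. Injection columns are numbered P1, P3, U1 and U3, and are called PBS 1, PBS 2, UCN1 1 and UCN1 2 as in the titles.

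Each table was fitted alone with limma 3.58.1 in R 4.3.3, with a mean-variance trend, on log2(FPKM + 0.5), for genes with a mean of at least 0.5 FPKM (14672 and 16139 genes). P-values were adjusted by Benjamini-Hochberg over all of these, with a threshold of 0.05. They measure the spread between these libraries, which may be technical. Low FPKM values, times gene length, fell in steps of 1 read (within 0.1 reads) for 92.0 to 92.5% of surgery and 98.8 to 99.0% of injection values, which gave the depths and reads for an alternative with voom. Other alternatives changed the pseudocount, filter, scaling (TPM, median of ratios), trend, array weights, replicate block or left out libraries; leaving out sham 1 and pIONT 2 together was chosen after seeing the data. The scripts were tested on simulated data.

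Members and lists were chosen with earlier results of these data known. Named are the members called in either comparison and, in each role, the 3 with the smallest p and the 1 with the highest mean. From each pathway list up to 4 called genes are named, or otherwise the 2 with the highest level. Genes named outside this rule are marked in the text. One gene of the pathway is not reported here.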

Additional observations from a re-analysis of the deposited data

How the results depend on the processing

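After surgery 3344 genes (22.8%) and 4 members were called. Members called numbered 1 with no filter, 2 without the mean-variance trend and 2 with array weights. The shares of all genes called were 10.5%, 20.5% and 23.3%, in that order. When 1 library was left out, 1 to 9 members and 1689 to 2969 genes (11.5 to 20.2%) were called. Without both sham 1 and pIONT 2, 1656 genes (11.3%) were called. Voom called 3576 genes (24.8%) and 4 members. In the injection experiment 97 genes and 0 members were called; genes numbered 2 with no filter, 155 with a filter of 2 FPKM, 5 without the trend, 354 with voom (2 members), and 5 to 38 when 1 library was left out (0 to 1 members). The 97 genes called after injection were 0.601% of all genes. The share was 0.00711% with no filter, 1.23% with a filter of 2 FPKM, 0.0310% without the trend and 2.25% with voom. With the replicate block the counts were 2085 genes (14.2%) and 2 members (Mx1, Cxcl10) after surgery. After injection they were 260 genes (1.61%) and 1 member (H2-K1, -0.80). Correlations of deviations from the group means were -0.055, -0.202 and 0.068 for the same replicate number in the surgery experiment. Between different numbers they were -0.206 to 0.231. In the injection experiment they were 0.039 and -0.039, which mirror each other by construction with 2 libraries per group. Whether replicate numbers pair the libraries cannot be decided from these values. Over all members, the log2 fold changes that turned sign after surgery numbered 4 on TPM, 3 with array weights, 1 with median of ratios, 6 without both sham 1 and pIONT 2 and 2 to 12 with 1 library left out; after injection 2 to 10 turned with 1 library left out. The values that follow are for the members named by the rule or in the text. After surgery, Ddx58 (-0.011 on TPM, -0.00068 with array weights), H2-D1 (-0.0093 and -0.092, likewise), Ifnar1 (-0.014 on TPM) and Lgals3bp (0.0016 with median of ratios) turned. Tapbp turned on TPM and with array weights as well, and also without sham 2 or without pIONT 2. Its range is not among those printed below. Without both sham 1 and pIONT 2, Gbp7 (0.11), Irf9 (0.0034), Lgals3bp (0.054) and Tap1 (0.071) also turned. The cause was not tested. With 1 library left out, the named members that turned after surgery ranged as follows: B2m -0.048 to 0.65, Ddx58 -0.11 to 0.20, Gbp2 -0.42 to 0.44, Gbp7 -0.33 to 0.16, H2-D1 -0.22 to 0.29, H2-K1 -0.050 to 0.56, Ifih1 -0.030 to 0.21, Ifnar1 -0.016 to 0.072, Igtp -0.20 to 0.81, Irf9 -0.27 to 0.10, Lgals3bp -0.19 to 0.15, Oasl2 -0.13 to 0.42, Rtp4 -0.38 to 0.18, Tap1 -0.46 to 0.16 and Zbp1 -0.14 to 0.59. After injection they ranged as follows: Cxcl10 -0.90 to 0.67, Ddx58 -0.13 to 0.071, Dhx58 -0.54 to 0.75, H2-D1 -0.062 to 0.38, Ifit1 -0.51 to 0.26, Ifitm2 -0.52 to 0.39, Ifitm3 -0.033 to 0.72, Ifnar1 -0.027 to 0.12, Ifnar2 -0.0011 to 0.19, Igtp -0.38 to 0.15, Isg15 -0.98 to 0.049, Stat2 -0.15 to 0.017, Usp18 -0.078 to 0.82 and Xaf1 -0.61 to 0.98. No scaling moved the median of all genes by over 0.1. Depth limits the low members most, such as Mx1 after UCN1, at 5 and 6 reads.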
